A study of Mus musculus with 30 samples.

Results

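Mice that had lost 1 copy of Tmem106b were compared with wild-type mice of the same age across the brain transcriptome. The comparison took all 10 samples whose genotype label is Tmem106b +/- (HET) and all 10 whose label is Tmem106b +/+ (WT), 20 of the 30 samples of the series. The other 10 carry no intact copy (Tmem106b -/-, KO) and are given only beside the HET values. Every sample is the RNA of a separate mouse aged 8 months, taken from the cerebral hemispheres with the RNeasy Plus Mini kit. Each of the 30 RNAs has its own score of RNA quality. The spread between samples thus holds that between animals together with that of dissection, RNA extraction, library preparation and counting. The genotypes were balanced for sex and cohort: 3 mice of each sex came from cohort 1 and 2 of each sex from cohort 2. The sample titles also carry what reads as a plate position, which was not balanced. Rows A, B and H hold no WT mouse, and rows E and F hold no HET mouse. Plate row was in no model, and adding plate column left 1 gene called. The RNA integrity number (RIN, a score of RNA quality that tops out at 10) was 9.23 ± 0.22 (SD, n = 10) in HET and 9.40 ± 0.28 (SD, n = 10) in WT, a difference of -0.17 (two-sided permutation test, p = 0.182). The sources used here do not give the strain, the stretch of the gene that was targeted or the meaning of the cohort number.

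TMEM106B is a transmembrane protein of late endosomes and lysosomes, the acidic compartments in which cells break down proteins and lipids. Variants of its human counterpart modify the risk of frontotemporal dementia, above all in carriers of mutations in progranulin, a protein that also ends in lysosomes. The protein has also been tied to oligodendrocytes, the cells that wrap axons in myelin, and the study set mice with 1 copy and with none beside WT mice to see how the brain transcriptome differs.

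The values are normalized log2 RPKM, in which 1 unit is a doubling, and 23695 of 34871 genes had a mean above 0 and were tested. Library medians lay between 2.82 and 2.91 and the highest value was 14.17 in every library. Each library correlated with the others at a mean r of 0.974 to 0.982. Markers of the main brain cell types were high, which fits brain tissue but cannot tell 1 part of the brain from another. Snap25, Slc1a2 and Mbp, which mark neurons, astrocytes and oligodendrocytes, stood at 12.05, 11.17 and 11.57 on average in the WT mice. The read depth behind the values is unknown, and in bulk tissue fewer cells of a type and less RNA per cell cannot be told apart.

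Tmem106b itself fell in the mice with 1 copy, and no other gene passed the test. Because the genotype removes a copy of this gene, its fall serves as a check of the genotype labels. Tmem106b (ENSMUSG00000029571, on mm10 chromosome 6 from 13069759 to 13089269) was 9.06 at the lowest, 9.17 at the median and 9.27 at the highest in the WT mice. In the HET mice these values were 8.54, 8.58 and 8.62. Every HET mouse lay below every WT mouse, and the HET mice were spread over less than 0.1 log2 unit. The mean was 9.17 ± 0.07 (SD, n = 10) in WT and 8.58 ± 0.03 (SD, n = 10) in HET. The change was -0.59 ± 0.03 (SE) on the log2 scale, with an adjusted p of 9.62e-15 in limma over all genes. A two-sided permutation of the 20 values gave p = 2e-05, the smallest that 100000 resamples can give. HET mice held 66.3% of the WT level (95% interval 63.8 to 68.9), and no other gene of the table overlaps Tmem106b.

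**Figure D1:**
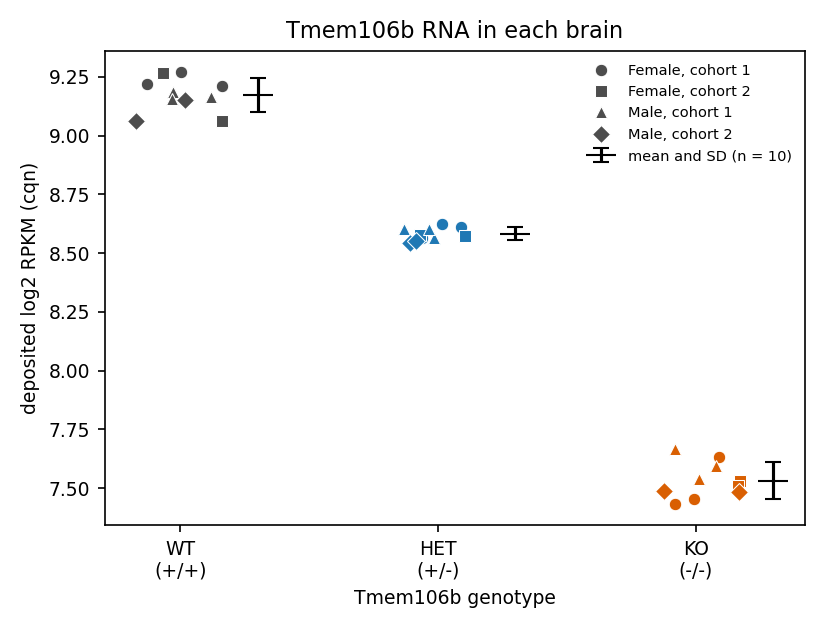
Tmem106b in each of the 30 mice (vertical axis, deposited log2 RPKM; 1 point per mouse, by genotype and cohort) with group means and SD. The HET mice lie between 8.54 and 8.62, below all WT mice (9.06 to 9.27) and above all KO mice (7.43 to 7.67).

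The change was seen in each subset of mice. Cohort 1 gave -0.60 and cohort 2 gave -0.58, females gave -0.62 and males -0.56. Neither the test of the difference between sexes (adjusted p = 0.927) nor that between cohorts (adjusted p = 0.996) passed for Tmem106b in limma.

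KO mice retained reads of the gene, with a lowest value of 7.43, a median of 7.52 and a highest of 7.67, or 32.0% of the WT level. On the linear scale the first copy lost took 33.7 percentage points of the WT level and the second took 34.3, and HET at 66.3% stood beside a WT and KO midpoint of 66.0%. On the log2 scale the midpoint is a geometric one, and HET lay 0.23 ± 0.02 (SE) above it (adjusted p = 4.79e-06, limma). Tmem106b was the only gene of 23695 called off this midpoint at an adjusted p under 0.05 (0.00422%, with 1365 genes or 5.76% at an unadjusted p under 0.05). A missing call does not place a gene on the midpoint. KO against HET gave -1.05 for Tmem106b (adjusted p = 1.21e-21).

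The fall of Tmem106b goes with its lost copy, and no link to upstream sequence was tested. The stretch just before the start of Tmem106b is shown because no other gene passed the test. It is the 250 bases upstream of the RefSeq start on GRCm38.p6, chr6:13069509-13069758, plus strand, from RefSeq, with 49.2% G or C.
Tmem106b: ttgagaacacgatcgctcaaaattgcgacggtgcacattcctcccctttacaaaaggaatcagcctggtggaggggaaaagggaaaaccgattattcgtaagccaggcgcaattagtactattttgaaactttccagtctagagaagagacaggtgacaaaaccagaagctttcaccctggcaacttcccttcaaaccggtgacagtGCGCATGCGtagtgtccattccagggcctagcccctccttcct
The capitals mark GCGCATGCG, the core of the motif of NRF1, a transcription factor of housekeeping and mitochondrial genes. The motif was picked after the sequence was read. It begins 43 bases before the start and is found, on either strand, in 476 of 32851 windows of this length (1.45%). CACGTG, the core of the element bound by the lysosomal regulator TFEB, is not in this window, and 1978 windows (6.02%) hold it on either strand. A match of letters is a description only.

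Across all genes the HET and WT brains were close. With 1 gene called of 23695 (0.00422%), 0 genes were higher and 1 was lower at an adjusted p under 0.05 in limma. At an unadjusted p under 0.05 there were 1497 genes (6.32%), 791 of them higher (3.34%) and 706 lower (2.98%). The median change over all genes was 0.00, with the middle 50% of genes between -0.05 and 0.05, and 11496 genes (48.5%) had an estimate below 0. In the same model KO against WT called 237 genes (1.00%), 66 higher (0.279%) and 171 lower (0.722%), and KO against HET called 28 (0.118%), 7 higher (0.0295%) and 21 lower (0.0886%). These comparisons share mice, WT in the first and HET in the second, so their counts are not independent of those of HET against WT.

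**Figure D2:**
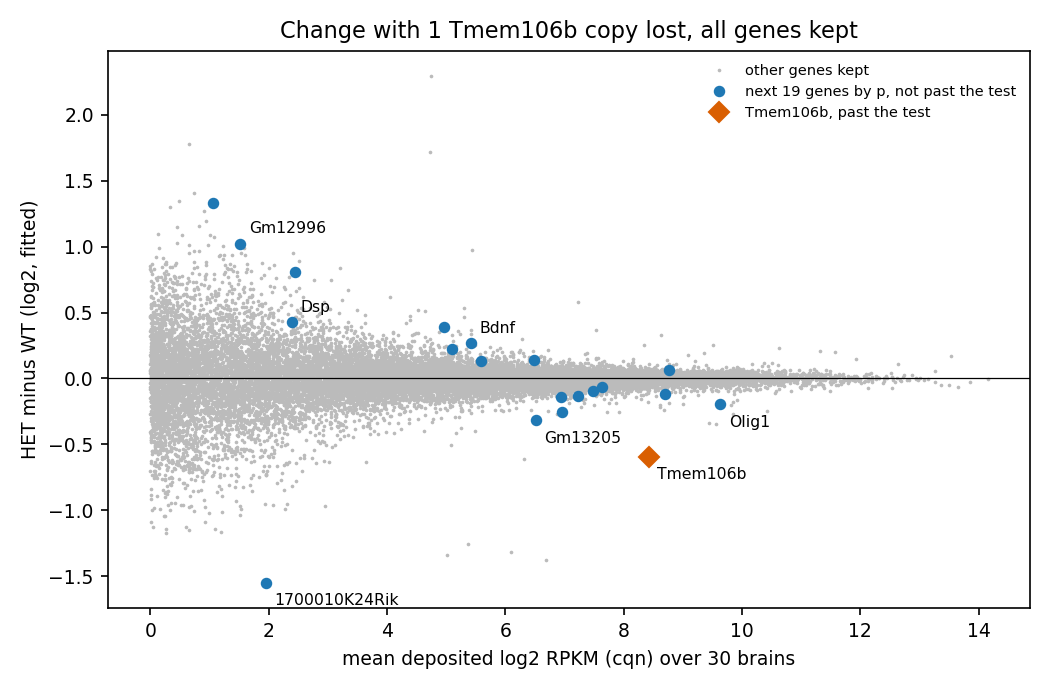
Change between HET and WT (vertical axis, log2) against the mean level over the 30 mice (horizontal axis, deposited log2 RPKM), 1 point per gene tested; the larger points are the 19 genes of next lowest p, and Tmem106b is a diamond. Tmem106b, at -0.59, is the gene past the test, and the cloud narrows around 0 as the level rises.

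The absence of calls can be read against the precision. The median half-width of a gene's 95% interval was 0.126 log2 over all genes, 0.0534 for the 3359 genes above a level of 8 and 0.659 for the 4828 genes below 2. For 14461 genes (61.0%) the whole interval lay within a 1.2-fold difference in either direction, and for 21820 (92.1%) within 2-fold. Above a level of 8 the share within 1.2-fold was 98.6%, and below a level of 2 it was 0.166%. Differences in genes of low level were thus often not detectable with these mice. Genes at an unadjusted p under 0.05, in either direction, made up 8.25% above a level of 8 and 5.03% below 2. The shares of all genes set beside the lists below are not matched for level.

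Of the other genes, the 19 with the lowest p split into 10 above and 9 below 0. These 19 were chosen on HET against WT, and KO against WT uses the same WT mice. The KO values given beside them are thus a description and no independent observation. Of the 20 with the lowest p, Tmem106b included, 5 had a mean level under 4 and 13 overlap another gene of the table. The sources used here do not name the strand setting of the counting, so reads of overlapping genes cannot be told apart. 1700010K24Rik lay in the HET mice between -0.29 and 2.16 with a median of 1.13, and in the WT mice between 2.20 and 3.57 with a median of 2.68. All HET mice were below all WT mice, which held for 2 genes in all (0.00844%), this one and Tmem106b, and all HET mice were above all WT mice for 0 genes. Its change was -1.55 ± 0.28 (SE, adjusted p = 0.0703, limma), and KO against WT gave -0.89. It overlaps Psma5, a subunit of the proteasome, whose own change was 0.08.

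Gm13205, which overlaps the transcription factor gene Casz1, ranged from 6.15 to 6.53 in HET (median 6.42) and from 6.53 to 6.88 in WT (median 6.71). The groups touch at one end without separating. The change was -0.32 ± 0.06 (SE, adjusted p = 0.0703, limma), beside -0.05 for Casz1, and KO mice gave -0.30 (adjusted p = 0.00549). Gm12996 ranged from 1.32 to 2.73 in HET and from -0.02 to 1.59 in WT, a change of 1.02 ± 0.21 (adjusted p = 0.190) at a mean level of 1.52. KO mice gave 0.95 for it (adjusted p = 0.0147). KO against HET gave 0.02 for Gm13205 and -0.07 for Gm12996.

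Olig1, a transcription factor of the oligodendrocyte lineage, had the fifth lowest p. It was 9.64 at the lowest, 9.80 at the median and 9.85 at the highest in WT, and 9.35, 9.59 and 9.78 in HET. The groups overlapped, with 8 of 10 HET mice below the WT mean. The change was -0.20 ± 0.04 (SE) with an adjusted p of 0.286 in limma, and was -0.26 in cohort 1 and -0.10 in cohort 2. The KO mice, at 9.43, 9.54 and 9.68, gave -0.25 against WT (adjusted p = 0.00137) and -0.05 against HET (adjusted p = 0.800).

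Bdnf, the neurotrophin that supports synaptic plasticity, ranged from 4.99 to 5.66 in WT (median 5.31) and from 5.37 to 5.82 in HET (median 5.56). All 10 HET mice lay above the WT mean, and the ranges overlapped. The change was 0.27 ± 0.07 (SE, adjusted p = 0.648, limma), and KO against WT gave 0.06. Dsp, a desmosomal protein that marks dentate granule cells in the hippocampus, had a change of 0.43 ± 0.10 at the same adjusted p of 0.648. Fyco1, an adaptor that moves autophagosomes and late endosomes along microtubules, gave -0.14 ± 0.03. Gna12, a G protein subunit, gave -0.12, Fah, an enzyme of tyrosine breakdown, -0.13, and Slc44a1, a choline transporter, -0.06. For those 3 genes KO against WT gave -0.20 (adjusted p = 0.000234), -0.18 (adjusted p = 0.00311) and -0.12 (adjusted p = 9.69e-05). The test was passed by none of these genes in HET mice, where the 20th gene had an adjusted p of 0.648.

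The genes that lie near Tmem106b on the chromosome were taken by position alone. Of 12 other genes of the table that start within 1 Mb, 7 passed the filter on low values and 0 were called. Thsd7a, which encodes a membrane protein with thrombospondin domains and starts 758 kb away, ranged from 5.94 to 6.18 in WT and from 5.94 to 6.14 in HET. Its change was -0.07 ± 0.03 (SE, unadjusted p = 0.0339, adjusted p = 0.768, limma), and KO against WT gave -0.20 (adjusted p = 0.000623). Tmem168 gave 0.04, Gpr85 0.02, B630005N14Rik 0.01, 2610001J05Rik 0.01 and 1110019D14Rik -0.02. Gm25737, at a level of 0.05, gave 0.26.

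No oligodendrocyte gene was called in the HET mice, and most of those examined had small estimates below 0. Over 6 lists of the lineage (myelin proteins, other genes of mature oligodendrocytes, lineage transcription factors, myelin lipid synthesis and transport, precursors and newly formed oligodendrocytes), 86 genes passed the filter and 0 were called. Estimates were below 0 for 67 (77.9%, against 48.5% of all genes), and 19 were lower at an unadjusted p under 0.05 (22.1%, against 2.98% of all genes), with 0 higher. The median change was -0.04, or -2.81%, against 0.00 over all genes, and single genes ran from -0.20 to 0.07. The same 86 genes had a median of -0.12 in KO against WT, with 37 called lower (0.722% of all genes were) and 0 higher. Their median in KO against HET was -0.06, with 12 called (0.118% of all genes were). Genes of a list share cells and mice, so these counts are no independent observations. The lists were also chosen with earlier results of these data known, and the shares of all genes are not matched for level, so the shares are a description. For 81 of the 86 the 95% interval of the HET change stayed above -0.26, the log2 of a 1.2-fold loss, and the lowest bound was -0.33.

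Of the 19 genes of myelin proteins, all in the table and above the filter, 18 had an estimate below 0 and 7 were lower at an unadjusted p under 0.05 (36.8%, against 2.98% of all genes). The median was -0.08 in HET and -0.18 in KO, where 14 were called lower, as were 0.722% of all genes. The mean over the 19 genes was 8.86 at the lowest, 9.00 at the median and 9.06 at the highest in WT, 8.84, 8.88 and 9.00 in HET, and 8.67, 8.77 and 8.90 in KO. Only 2 of the 10 HET mice lay below the lowest WT mouse, so the groups overlapped. Of all genes above a level of 8, 8.25% stood at an unadjusted p under 0.05 in either direction. Each cohort gave a median of -0.08, females -0.06 and males -0.09.

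**Figure D3:**
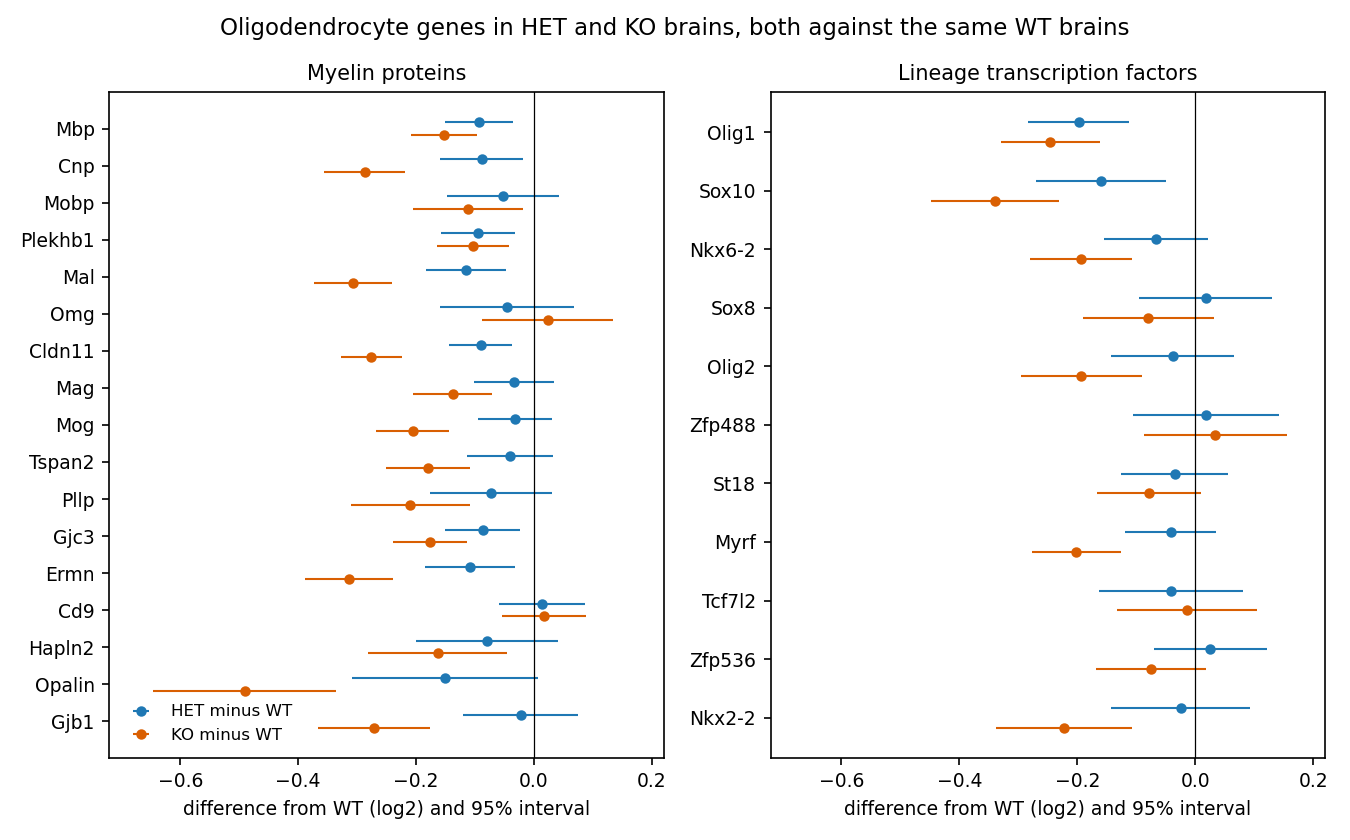
Change against WT (horizontal axis, log2) of myelin protein genes and lineage transcription factor genes reported here, with HET and KO as separate points and bars for the 95% intervals of the limma model. HET estimates lie nearer to 0 than those of KO for genes such as Mal (-0.11 against -0.31) and Cldn11 (-0.09 against -0.28).

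Mbp, the myelin basic protein that compacts the sheath, ranged from 11.42 to 11.71 in WT (median 11.57), from 11.35 to 11.68 in HET (median 11.43) and from 11.25 to 11.62 in KO (median 11.40). Its change was -0.09 ± 0.03 (SE, adjusted p = 0.671, limma) in HET and -0.15 in KO (adjusted p = 0.00311). Mog and Mag, 2 proteins of the outer and inner sheath, gave -0.03 each in HET, beside -0.21 and -0.14 in KO. Opalin, a membrane protein of mature oligodendrocytes, gave -0.15 ± 0.08 in HET beside -0.49 in KO. Gjb1, a connexin that joins myelin layers to each other, gave -0.02 in HET beside -0.27 in KO. Cd9, a tetraspanin, was the 1 member above 0, at 0.01. None of these genes passed the test in HET mice.

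The 10 genes with the lowest p in KO against WT were Tmem106b and 9 others, of which none was called in HET mice. They were chosen on a comparison that uses the same WT mice and the same KO mice, so their HET values, against either genotype, are a description. Fa2h, the hydroxylase that makes the 2-hydroxy lipids of myelin, ranged from 7.19 to 7.42 in WT (median 7.37), from 7.09 to 7.31 in HET (median 7.25) and from 6.84 to 7.08 in KO. The KO mice lay below every HET mouse, while HET and WT overlapped. The change was -0.11 ± 0.03 (SE, adjusted p = 0.686, limma) in HET and -0.39 in KO, and KO against HET gave -0.28.

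Cldn11, the claudin that seals myelin layers, ranged from 9.40 to 9.55 in WT, from 9.34 to 9.45 in HET and from 9.11 to 9.32 in KO. It gave -0.09 in HET (adjusted p = 0.648) and -0.28 in KO, and KO against HET gave -0.19. Mal, a proteolipid of myelin rafts, had medians of 10.00 in WT, 9.92 in HET and 9.68 in KO. Mal gave -0.11 in HET and -0.31 in KO, and Cnp, an enzyme of the myelin cytoplasm, gave -0.09 and -0.29. Ermn, a cytoskeletal protein of myelinating cells, gave -0.11 and -0.31. Ugt8a, which makes galactosylceramide, gave -0.10 and -0.39, Lpar1, a lysophosphatidic acid receptor, -0.10 and -0.33, Ttyh2 -0.08 and -0.21, and Adamts4, a protease of mature oligodendrocytes, -0.04 and -0.31. For Mal, Cnp and Ermn the KO against HET change was -0.19, -0.20 and -0.20.

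The lineage transcription factors held 11 genes, 8 with an estimate below 0 and 2 lower at an unadjusted p under 0.05. Those 2 were Olig1, above, and Sox10, the factor that drives the myelin programme. Sox10 ranged from 7.57 to 8.25 in WT (median 7.77), from 7.56 to 7.78 in HET (median 7.72) and from 7.30 to 7.63 in KO. All 10 HET mice lay below the WT mean of 7.82, which stood above the WT median. They lay within the WT range save at its lower edge. The change of Sox10 was -0.16 ± 0.05 (SE, adjusted p = 0.751, limma), beside -0.34 in KO (adjusted p = 0.000613). The HET change was -0.26 in cohort 1 and 0.01 in cohort 2, and the test of that difference gave an unadjusted p of 0.00959 and an adjusted p of 0.996 in limma. Olig2 gave -0.04, Nkx2-2 -0.02 and Myrf, the factor of terminal maturation, -0.04, beside -0.19, -0.22 and -0.20 in KO, the first of which was not called there.

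None of the remaining genes of the lineage was called. The 25 other genes of mature oligodendrocytes had a median of -0.04, with 21 below 0, beside -0.12 in KO. The 14 genes of myelin lipid synthesis and transport had a median of -0.04, with 9 below 0. The 9 precursor genes in the table had a median of -0.06, with Pdgfra, the growth factor receptor of precursors, at -0.11 ± 0.03 (adjusted p = 0.671) and in 10 of 10 HET mice below the WT mean. The 8 genes of newly formed oligodendrocytes had a median of -0.02, with Enpp6 at -0.20 ± 0.07 beside -0.43 in KO. Genes of the nodes of Ranvier and paranodes, where axon and myelin meet, had 7 of 12 above 0 and a median of 0.01. Cholesterol synthesis and uptake, which feeds myelin growth, had 18 of 22 above 0 and a median of 0.02, at 0.05 in cohort 1 and -0.02 in cohort 2.

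No gene of the lysosomal lists, which include the partners of TMEM106B, was called in HET mice. Among 9 genes of the TMEM106 family, progranulin and partners, a list that leaves out Tmem106b itself, 0 passed even the unadjusted threshold. The median was -0.02. Grn, the progranulin gene, gave -0.05 ± 0.12, Tmem106c -0.01 ± 0.03, Psap, the prosaposin that binds progranulin, 0.01 ± 0.02 and Sort1, the receptor that takes progranulin to lysosomes, -0.02 ± 0.03. Ctsl, a cathepsin that cleaves progranulin, gave -0.03. Other frontotemporal dementia genes had 8 of 11 above 0, a median of 0.01 and 0 at the unadjusted threshold.

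The vacuolar ATPase is the proton pump that acidifies lysosomes, and TMEM106B binds a subunit of its complex. Of 18 subunit genes 13 had an estimate above 0, 4 were higher at an unadjusted p under 0.05 (22.2%, against 3.34% of all genes), 0 were lower and 0 were called. The median was 0.02 in HET and 0.03 in KO. The mean over the list was 9.97, 9.99 and 10.02 (lowest, median and highest) in WT and 9.99, 10.01 and 10.03 in HET, with 4 of 10 HET mice above the highest WT mouse. Of all genes above a level of 8, 8.25% stood at an unadjusted p under 0.05 in either direction. Atp6v1h gave 0.10 ± 0.04, Atp6ap2 0.06 ± 0.02, Atp6v1b2 0.04 ± 0.01 and Atp6v0d1 0.03 ± 0.01. Atp6ap1, the accessory subunit that binds TMEM106B, gave 0.03 ± 0.02.

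The hydrolases of the lysosome had 26 of 36 below 0 and a median of -0.02, at -0.04 in cohort 1 and 0.01 in cohort 2. Ctsd, the main aspartic protease of lysosomes, gave -0.00 in HET and 0.10 in KO, where it was called. Lysosomal membrane proteins had a median of -0.02, with 16 of 22 below 0. Autophagy genes had a median of 0.00, with 11 of 21 above 0, and genes of the unfolded protein response one of 0.02, with 15 of 18 above 0. Each of these lists had at most 2 members higher and at most 2 lower at an unadjusted p under 0.05.

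No marker of neurons or astrocytes was called in HET mice. Neuronal genes had 11 of 13 above 0 and a median of 0.01. Excitatory and inhibitory neurons had medians of 0.02 and 0.03. Among the latter, Cort, a cortical neuropeptide, gave 0.31 ± 0.11 in HET and 0.49 in KO, where it was called. Astrocyte genes had 14 of 16 below 0 with a median of -0.02. Gfap, the filament of reactive astrocytes, gave -0.04 ± 0.05 in HET and 0.22 in KO, where it was called. The 12 reactive astrocyte genes that passed the filter, of 13, had a median of -0.04.

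Microglial genes had 18 of 20 below 0 in HET mice and a median of -0.06, beside 0.04 in KO. The mean over the list was 6.67, 6.82 and 6.98 in WT and 6.65, 6.77 and 6.85 in HET. The groups overlapped, with 1 of 10 HET mice below the lowest WT mouse and some WT mice above the highest HET mouse. Cx3cr1, the fractalkine receptor, gave -0.11 ± 0.03 and Csf1r, the receptor that keeps microglia alive, -0.08 ± 0.03, both at an unadjusted p under 0.05. C1qb, a complement subunit, gave 0.02 in HET and 0.18 in KO, where it was called. Genes of disease-associated microglia had a median of -0.04 in HET and 0.08 in KO, with Cd68, a lysosomal glycoprotein of phagocytes, at -0.13 in HET. Interferon response genes had a median of 0.04, at -0.04 in cohort 1 and 0.07 in cohort 2, and -0.01 without HET replicate 8.

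All 9 genes of mural cells, the pericytes and smooth muscle of vessels, had an estimate below 0, with a median of -0.11, beside -0.07 in KO. The mean over the list was 6.15, 6.32 and 6.51 in WT and 6.04, 6.21 and 6.43 in HET, with 2 of 10 HET mice below the lowest WT mouse. Rgs5 gave -0.11 ± 0.03, Pdgfrb -0.12 ± 0.05 and Notch3 -0.13 ± 0.04, the 3 members at an unadjusted p under 0.05 (33.3%, against 2.98% of all genes lower). Cohort 1 had a median of -0.07 and cohort 2 one of -0.12, while females had -0.04 and males -0.16. Endothelial genes had a median of -0.06. Meningeal fibroblast genes had one of -0.09, at -0.16 in cohort 1 and 0.05 in cohort 2, and choroid plexus genes -0.04, at -0.18 and 0.20. WT replicate 10 stood low for choroid plexus genes, and without it their median was -0.14. Blood genes had the lowest median of the 40 lists, -0.25, with a median half-width of 0.572. It was -0.14 without RIN in the model, -0.06 in males, and from -0.35 (without HET replicate 3) to -0.12 (without HET replicate 1) when 1 mouse was left out. How far the share of vessel, meningeal or blood tissue in each sample bears on the other lists was not tested.

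**Figure D4:**
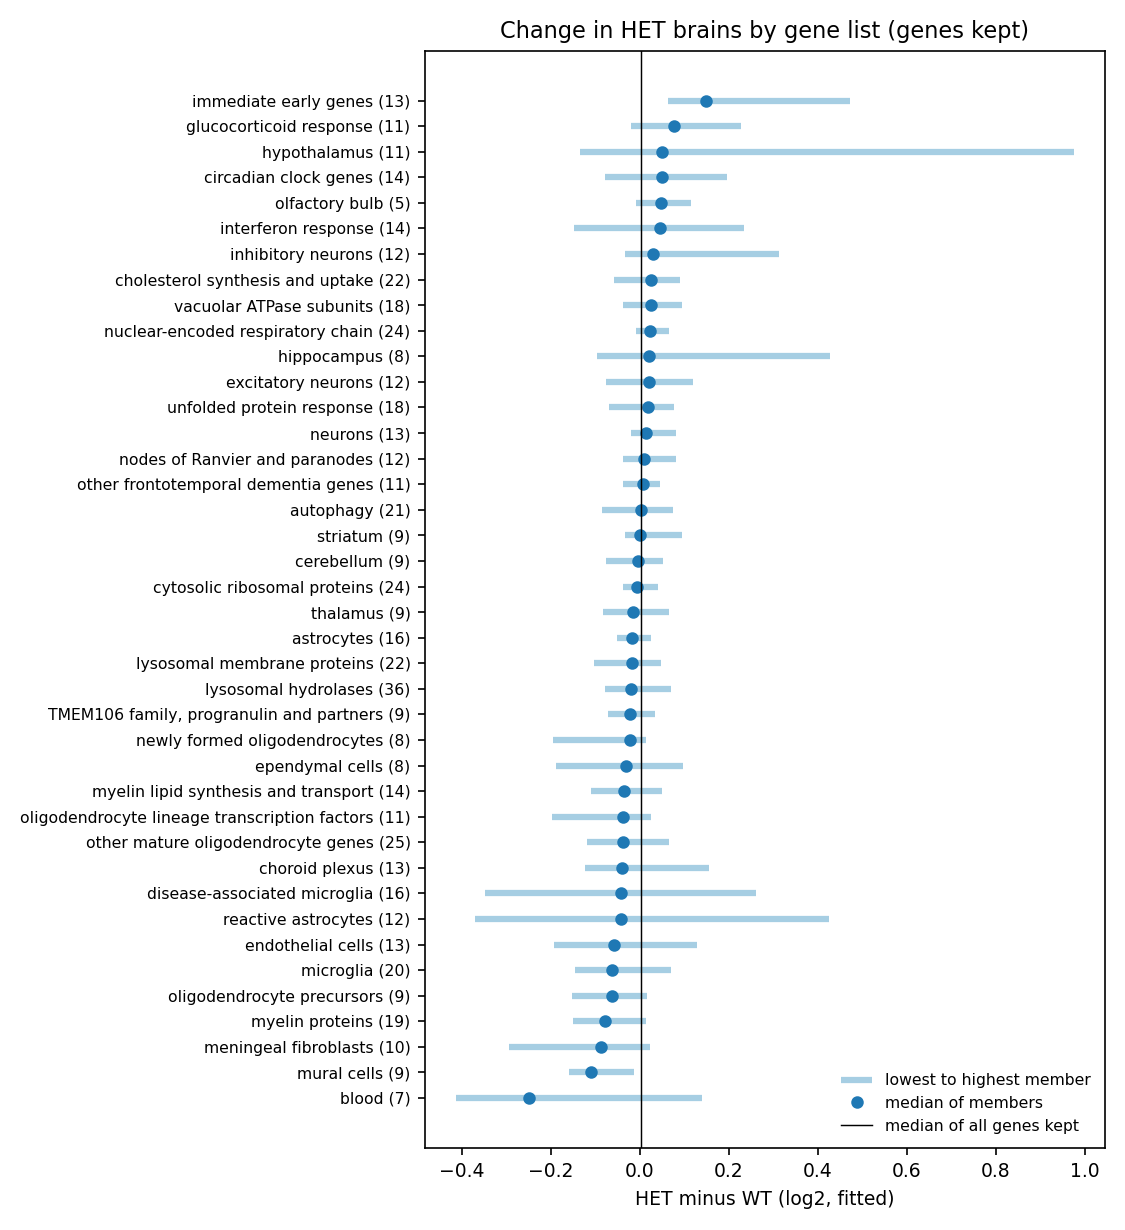
Change between HET and WT (horizontal axis, log2) of the genes of each of the 40 lists, 1 row per list with its number of genes tested. Points are medians and bars run from the lowest to the highest member; medians lie between -0.25 (blood) and 0.15 (immediate early genes), 18 above and 22 below 0.

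Immediate early genes, which neurons switch on within minutes of activity, had 13 of 13 above 0 in HET mice and a median of 0.15. Yet 0 passed even the unadjusted threshold in HET, where the median half-width was 0.425. The median in KO against WT was -0.40, with 0 called there. The mean over the list spread from 6.71 to 7.94 in WT (median 7.47), from 6.65 to 8.27 in HET (median 7.79) and from 6.15 to 7.96 in KO (median 6.93). The groups overlapped over most of their range. Egr1 gave 0.25 ± 0.16, Nr4a1 0.25 ± 0.25 and Arc 0.14 ± 0.25. Cohort 1 had a median of 0.29 and cohort 2 one of -0.09. Leaving out 1 mouse gave medians from 0.05 (without HET replicate 10) to 0.26 (without HET replicate 3).

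Glucocorticoid response genes had 10 of 11 above 0 and a median of 0.08, beside 0.25 in KO with 5 called higher (0.279% of all genes were). Zbtb16, a transcription factor induced by glucocorticoids, gave 0.20 in HET and 0.36 in KO, where it was called. The list's median was 0.17 in cohort 1 and -0.04 in cohort 2. Circadian clock genes had 11 of 14 above 0 and a median of 0.05, beside 0.16 in KO. The sources used here do not give the hour of sampling.

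Nuclear-encoded genes of the respiratory chain had 21 of 24 above 0 with a median of 0.02, at 0.05 in cohort 1 and -0.01 in cohort 2, and cytosolic ribosomal proteins had 16 of 24 below 0 with a median of -0.01. Markers of brain regions, read as a check of dissection, had medians of -0.01 for cerebellum, 0.02 for hippocampus, 0.00 for striatum, -0.02 for thalamus, 0.05 for hypothalamus and 0.05 for olfactory bulb. Some of these were unstable. The cerebellum median was -0.07 in females and 0.08 in males. That of hypothalamus was -0.08 in cohort 1 and 0.29 in cohort 2, with a median half-width of 0.423. Small medians here do not show that dissection was equal. Over all 40 lists, none of which holds Tmem106b, 557 distinct genes were tested and 0 were called. Of these, 51 stood at an unadjusted p under 0.05, 35 lower (6.28%, against 2.98% of all genes) and 16 higher (2.87%, against 3.34%). Just 3 lists had a median further than 0.1 from 0, those of mural cells, blood and immediate early genes.

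**Figure D5:**
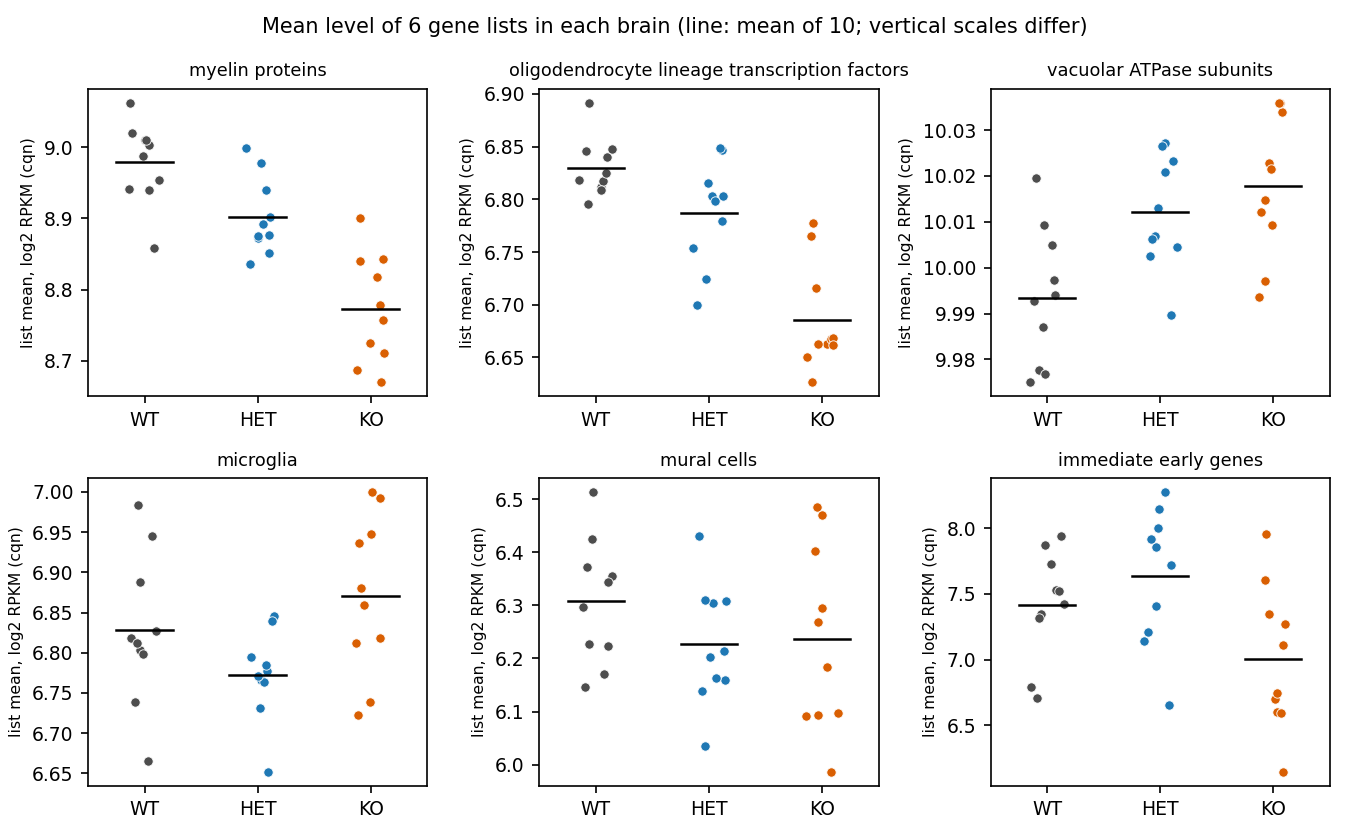
Mean deposited log2 RPKM over the genes of 6 lists (vertical axes), 1 point per mouse, by genotype. WT and HET overlap in each list, as for myelin proteins (8.86 to 9.06 in WT, 8.84 to 9.00 in HET) and immediate early genes (6.71 to 7.94 in WT, 6.65 to 8.27 in HET).

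No gene was called for a different effect of the lost copy in females and males or in the 2 cohorts. The limma interaction with sex called 0 of 23695 genes (0%, with 1412 genes or 5.96% at an unadjusted p under 0.05), and the interaction with cohort called 0 (0%, with 1072 genes or 4.52%). The sex test set 5 mice against 5 in each genotype, and the cohort test 6 against 4.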

How the data were processed

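RNA-seq was done on brain RNA of 30 mice. The tools named per the submitters' processing notes are TopHat2 2.0.12 and Bowtie 1.1.0, with the build mm10. The sources used here do not name the annotation, the read counter, its strand setting or the depth. The authors deposited log2 RPKM values after conditional quantile normalization (cqn), which adjusts for gene length, GC content and library, per the file headers, with a column of gene lengths that was not used in any test. Values compare libraries and are not absolute RPKM. No pseudocount was added.

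Genes with a mean above 0 over the 30 libraries were kept (23695 of 34871). Each was fitted in limma 3.58.1, under R 4.3.3, to the 30 mice with RIN, cohort, sex and genotype as terms, tested two-sided (moderated test with intensity trend) and adjusted by Benjamini-Hochberg over all genes kept, and called at an adjusted p under 0.05. Contrasts were HET against WT, HET against the WT and KO midpoint, the other genotype pairs, and interactions with sex and cohort. Single values were permuted 100000 times in scipy 1.17.1. The fit was tested on simulated data.

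The members and the 40 gene lists (563 distinct genes, 557 kept, 1 below the filter and 5 with no row matched) were chosen with earlier results of these data known. Named genes were Tmem106b, the 20 lowest p, the highest members of each list, those starting within 1 Mb, and the 10 lowest p in KO against WT. Other members are named beside their list, and were chosen after their values were seen. Some members of the lists are counted with them but not reported here by name. Replicate numbers follow sample order and pair nothing. Alternatives varied samples, covariates, filter, variance model and scaling.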

Additional observations from a re-analysis of the deposited data

Results flagged for a closer look

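In 388 groups of 10 mice (named genes and list means in WT and HET), the highest or lowest mouse was set against the other 9, and in 23 groups that mouse's gap to its nearest neighbour, as a share of the range, passed Dixon's 95% critical value. Chance alone marks about 1 group in 20.

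WT replicate 10 accounts for 6 of them, all at the low end. Its choroid plexus genes stood low, with Ttr, the transthyretin of cerebrospinal fluid, at 12.23 against 12.68 to 12.99 in the others (gap 0.587 of the range), Kl at 5.39 (0.567), and the choroid plexus mean at 5.33 against 5.91 to 6.41 (0.532). Igf2, a growth factor of meninges and plexus, was 7.61 (0.503), Rora 7.28 (0.586) and Gm25737 -0.55 (0.505).

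Among oligodendrocyte genes, Cnp was lowest in WT replicate 3 at 10.25 against 10.37 to 10.47 (0.555), Trf, the transferrin of oligodendrocytes, was lowest in HET replicate 3 at 10.43 (0.515), and Sirt2 was highest in HET replicate 9 at 8.47 (0.472). Near Tmem106b, Thsd7a was highest in HET replicate 2 at 6.14 (0.549) and n-R5s160 was highest in WT replicate 6 at 1.83 (0.705). The mean of the TMEM106 family, progranulin and partners was lowest in WT replicate 5 at 8.27 (0.497).

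Of the astrocyte genes, Ndrg2 was lowest in HET replicate 1 at 11.89 (0.565), and Serpina3n was highest in HET replicate 8 at 7.10 against 6.48 to 6.75 (0.562), as was the mean of reactive astrocyte genes in that mouse (0.603). The mean of the unfolded protein response was highest in WT replicate 3 at 8.55 (0.521). Hbb-bs, a haemoglobin chain, was lowest in WT replicate 7 at 9.30 against 10.11 to 10.82 (0.530).

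Genes of single brain regions gave the rest. The striatal gene Ppp1r1b was lowest in WT replicate 2, at 9.42 (0.489). Oxt, the oxytocin gene, was 4.41 in HET replicate 4 against 6.39 to 7.75 (0.594), and the hypothalamic mean was lowest there too, at 4.29 (0.484). Cdhr1, an olfactory bulb gene, was highest in WT replicate 8 at 6.11 (0.499) and in HET replicate 9 at 5.97 (0.526), where the olfactory bulb mean was also highest (0.576).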

How the results depend on the processing

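Tmem106b kept its direction and its call in all 34 alternatives, between -0.62 and -0.56 on the log2 scale. The number of genes called for HET against WT, 1 as reported, was 4 with genotype alone (1 higher, 3 lower) and 3 without RIN. Leaving out 1 mouse at a time gave 1 to 2 genes, with 2 without HET replicate 1, 4 or 6 and without WT replicate 4 or 7. The added genes were 1700010K24Rik (adjusted p = 0.0379 with genotype alone, 0.0319 without RIN, and 0.0284, 0.0199 and 0.0361 without HET replicate 4, HET replicate 6 or WT replicate 4), Gm13205 (0.0379, 0.0319, and 0.0364 and 0.0375 without HET replicate 1 or WT replicate 7) and Gm12996 (0.0379 with genotype alone), all from limma. The cause was not tested. The other 27 alternatives gave 1 gene. The midpoint comparison gave 1 gene in all 29 alternatives, and both interactions gave 0 genes in all 3 of theirs. Of 5096 values of named genes, 10 newly passed the test and 0 called values reversed. A change of sign without a call was seen 346 times, in 86 of 150 genes, and in 0 of the 19 genes of next lowest p. Of 1360 list medians 4 moved by more than 1 SD of the list mean between mice of a genotype, those of oligodendrocyte precursors (-0.01), lysosomal hydrolases (0.01) and meningeal fibroblasts (0.05) in cohort 2 alone and of vacuolar ATPase subunits (0.05) in males alone. The sign of a list median differed from the reported one 82 times, in 25 of 40 lists. No paired analysis was possible because the labels give no replicate numbers that link mice of different genotypes. The table holds normalized values, so depth is unknown and counting error cannot be separated from the spread between mice. Genes below a level of 2 had a median 95% half-width of 0.659 log2, which limits what a missing call can show there.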

Other observations

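Besides Tmem106b, 14 genes with a mean level above 4 had an estimate beyond 0.5 log2 between HET and WT, 6 lower and 8 higher. None was called by limma, and 6 stood at an unadjusted p under 0.05. They were looked up after the values were seen. Their standard errors ran from 0.149 to 1.26 log2, against 0.03 for Tmem106b.

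The largest of these estimates above 0 belonged to hormones of the pituitary. Gh, growth hormone, gave 2.29 ± 1.18 (SE, adjusted p = 0.797), with WT mice from -0.55 to 7.85 and HET mice from 0.20 to 8.03. Prl, prolactin, gave 1.72 ± 1.26 (adjusted p = 0.874), with WT mice from -1.67 to 9.27 and HET mice from -0.21 to 9.44. Pomc, the precursor of corticotropin that pituitary and hypothalamus share, gave 0.98 ± 0.58 (adjusted p = 0.820). Both groups hold mice with very low and mice with high values of the first 2 transcripts. KO against WT, with the same WT mice, gave 2.07, 1.65 and 1.02.

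The 4 lowest of these estimates belonged to genes of the sex chromosomes. Mid1, an X-linked ubiquitin ligase, gave -1.32 ± 0.63 (adjusted p = 0.785), with WT mice reaching 8.03 (median 7.34) and HET mice 8.11 (median 4.57). Gm15726 (-1.38) and Gm15247 (-1.26) on X and Gm21857 (-1.34) on Y had 7 of 10 HET mice below the WT mean, as Mid1 did. The highest values of the genotypes were close for Mid1 while the medians lay far apart, and the KO against WT value was -0.47.

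Olfm3, a secreted neuronal protein, gave 0.58 ± 0.42 (adjusted p = 0.871), with WT mice from 4.34 to 7.88 around a median of 7.37, and HET mice from 6.89 to 7.94. Mir3070a gave 0.51 ± 0.15 (adjusted p = 0.648), with all 10 HET mice above the WT mean, and KO mice gave 0.48 against WT. The small nuclear RNAs Scarna2 and Scarna17 gave 0.53 and 0.52, with 7 of 10 HET mice above the WT mean for each.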
